A study of Mus musculus with 3 samples.

Results

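The Egf system of the mouse small intestine was followed through 10 genes of the 27998 in the count tables. They were chosen by name, as 3 receptors (*Egfr*, *Erbb2*, *Erbb3*), 5 ligands (*Areg*, *Ereg*, *Hbegf*, *Tgfa*, *Btc*) and 2 brakes on the receptors (*Lrig1*, *Errfi1*), and all 10 were found. The data were single-cell transcriptomes of epithelium sorted for the surface protein EpCAM, with 1 library per genotype, all on the strain C57BL/6. WT was wild type. *LApc* (Lgr5-CreERT2;Apc fl/fl) carried floxed *Apc* and a Cre that tamoxifen switches on, driven from *Lgr5*, a gene of the intestinal stem cells, so that only cells that once had Cre, and their progeny, could lose *Apc*. *LApcL* had these alleles and Lef1 fl/fl, which lets the same Cre remove the Wnt pathway factor *Lef1* too. According to the labels, all mice were 7 to 8 weeks old when they were given 2 doses of 2 mg tamoxifen. *LApcL* was taken on day 21 and *LApc* on day 29, at the time they met criteria for euthanasia, and WT was taken on day 21. Genotype cannot be told apart from mouse and library, and for *LApc* also from day, so the differences given are between these libraries and no test was run. All intervals are exact 95% intervals for counting error only.

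Ligands of the Egf family are made as membrane-bound precursors that proteases shed from the cell surface. They bind Egfr, which pairs with itself or with Erbb2 or Erbb3 and drives the Ras to Erk and the PI3K to Akt cascades. Erbb2 has no known ligand, Erbb3 binds neuregulins and has little kinase activity of its own, and both act as partners. In the crypt, the pit that holds the intestinal stem cells, Egf signals drive proliferation. Lrig1, a membrane protein of stem cells, and Errfi1 (Mig6), a cytoplasmic inhibitor of the receptor kinase that is itself induced by Erk signalling, hold the receptors in check.

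The libraries held 140181087 (WT), 79696291 (*LApc*) and 191509615 (*LApcL*) unique molecular identifiers (UMIs, 1 per captured RNA molecule), and 10138, 9601 and 14394 cells were kept, with medians of 9713, 6132 and 10156 UMIs. Between 214 and 318 cell barcodes were shared by each pair of libraries. Cells were assigned to classes named "X-like" from marker genes, by clustering without the 10 genes and without the pathway genes described at the end. Wnt/TA-like cells, which are stem and transit-amplifying (proliferating progenitor) cells by their markers, were divided into adenoma-enriched cells, from subclusters to which WT contributed almost nothing (4 WT cells, 1267 of *LApc*, 9161 of *LApcL*), and other Wnt/TA-like cells (3185, 2224 and 1342). An unnamed class, cluster 5, was led by *Fabp6*, a bile acid-binding protein of the ileum. A second unnamed and smaller class, cluster 9, was led by globins (48, 175 and 256 cells), and orders of levels are over the other classes unless it is named. *Lef1* stood at 21.7 CPM (UMIs of a gene scaled to a common total per class) in adenoma-enriched cells of *LApc* and at 3.62 CPM in those of *LApcL*. *Apc* stood at 49.0 and 37.3 CPM there, above 19.6 CPM in other Wnt/TA-like cells of WT, and a count near the 3′ end does not show the loss of an upstream exon, so the genotype names mean the libraries labelled so. The sorted cells carried epithelial markers. Summed markers of immune cells stood at 27.3 CPM in adenoma-enriched cells of *LApc* against 2.61 CPM in *LApcL*, and summed stromal markers at 37.8 against 16.4 CPM.

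The receptors were detected across the classes, and each had its own order of them. *Erbb3* (ENSMUSG00000018166, chromosome 10, 128567523 to 128589652 of GRCm38, minus strand) was highest in the absorptive cells. In enterocyte-like cells it stood at 84.9 CPM (1511 UMIs, 80.6 to 89.2) in WT, 127 CPM (1944 UMIs, 121 to 132) in *LApc* and 137 CPM (1385 UMIs, 130 to 145) in *LApcL*. In cluster 5 it was 80.6, 122 and 101 CPM, which in WT and *LApc* did not differ from enterocyte-like cells beyond counting error. Adenoma-enriched cells ranked near the bottom, with 32.4 CPM (324 UMIs, 29.0 to 36.2) in *LApc* and 36.9 CPM (4048 UMIs, 35.8 to 38.0) in *LApcL*, above only the Paneth-like cells among the named classes, and near the 34.0 CPM (64 UMIs, 26.2 to 43.4) of cluster 9 in *LApcL*.

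*Erbb2* (ENSMUSG00000062312, chromosome 11, 98412470 to 98437716, plus strand) followed a similar order with a smaller range. Its highest levels were in cluster 5 (37.1, 49.97 and 46.0 CPM in WT, *LApc* and *LApcL*) and in enterocyte-like cells (37.1, 42.5 and 45.3 CPM). Adenoma-enriched cells had 23.0 CPM (230 UMIs, 20.2 to 26.2) in *LApc* and 26.4 CPM (2899 UMIs, 25.5 to 27.4) in *LApcL*. *Egfr* (ENSMUSG00000020122, chromosome 11, 16752203 to 16918158, plus strand) was the one receptor that peaked in the hormone-producing enteroendocrine-like cells of all 3 libraries, at 16.4 CPM (52 UMIs, 12.2 to 21.5) in WT, 23.9 CPM (45 UMIs, 17.4 to 32.0) in *LApc* and 20.3 CPM (44 UMIs, 14.8 to 27.3) in *LApcL*. Each of these exceeded the next class of its library beyond counting error. In adenoma-enriched cells *Egfr* stood at 10.2 CPM in *LApc* and 8.14 CPM in *LApcL*, close to the 10.2 and 7.55 CPM of the other Wnt/TA-like cells. No *Egfr* UMI was found in the 85 tuft-like cells of *LApc*, which allows a level of up to 7.29 CPM there.

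In Paneth-like cells all 3 receptors had their lowest level in WT. Paneth cells secrete antimicrobial peptides, and the Paneth marker list took 76.7%, 67.5% and 65.8% of their UMIs in WT, *LApc* and *LApcL*. CPM of every other gene is lowered by that share, whose part in the low levels was not tested.

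In WT *Areg*, *Ereg* and *Tgfa* were below 10 CPM in every class, while *Btc* reached 12.2 CPM and *Hbegf* 26.1 CPM. *Areg*, *Btc* and *Tgfa* had their highest levels in the adenoma-enriched cells of both mutant libraries. *Areg* (ENSMUSG00000029378), *Ereg* (ENSMUSG00000029377) and *Btc* (ENSMUSG00000082361) are neighbours, and span 328373 bases of chromosome 5 (91074622 to 91402994) with no other protein-coding gene between them. *Areg* encodes amphiregulin (91139599 to 91148432, plus strand). Its level was 79.1 CPM (790 UMIs, 73.7 to 84.8) in adenoma-enriched cells of *LApc* and 27.9 CPM (3067 UMIs, 27.0 to 29.0) in those of *LApcL*. In other Wnt/TA-like cells it was 0.610 CPM (22 UMIs, 0.383 to 0.924) in WT, 1.68 CPM (27 UMIs, 1.11 to 2.44) in *LApc* and 2.18 CPM (28 UMIs, 1.45 to 3.15) in *LApcL*. The highest WT class, enterocyte-like cells, had 5.73 CPM. No other ligand separated the adenoma-enriched cells from the rest of the crypt as widely.

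*Btc*, betacellulin (91357261 to 91402994, minus strand), stood at 55.0 CPM (549 UMIs, 50.5 to 59.8) in adenoma-enriched cells of *LApc* and 42.3 CPM (4638 UMIs, 41.1 to 43.5) in those of *LApcL*. Outside them it was highest in the mucus-producing goblet-like cells of WT and *LApc*, with 12.2 CPM (387 UMIs, 10.97 to 13.4) in WT, 24.4 CPM (232 UMIs, 21.3 to 27.7) in *LApc* and 14.8 CPM (136 UMIs, 12.4 to 17.5) in *LApcL*, where the 16.2 CPM of enteroendocrine-like cells did not differ from it beyond counting error. The globin-led cluster 9 had 37.2 CPM (70 UMIs, 29.0 to 46.9) of *Btc* in *LApcL*, above both, and 6.86 CPM (4 UMIs, 1.87 to 17.6) in *LApc*. *Ereg*, epiregulin (91074622 to 91093646, plus strand, 45952 bases before *Areg*), had its highest level in another class than its neighbours. It reached 6.90 CPM (70 UMIs, 5.38 to 8.72) in cluster 5 of WT, 5.34 CPM (34 UMIs, 3.70 to 7.47) in that of *LApc* and 3.06 CPM (13 UMIs, 1.63 to 5.24) in that of *LApcL*. Adenoma-enriched cells held only 0.901 CPM (9 UMIs, 0.412 to 1.71) in *LApc* and 0.784 CPM (86 UMIs, 0.627 to 0.968) in *LApcL*.

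*Hbegf*, the heparin-binding ligand (ENSMUSG00000024486), was spread more evenly. Adenoma-enriched cells had 43.2 CPM (431 UMIs, 39.2 to 47.4) in *LApc*, the highest class there, and 34.6 CPM (3802 UMIs, 33.6 to 35.8) in *LApcL*, where enterocyte-like cells were higher at 39.0 CPM (393 UMIs, 35.2 to 43.0). In WT it was highest in cluster 5, with 26.1 CPM, and enterocyte-like cells had 18.9 CPM. *Tgfa* (ENSMUSG00000029999, chromosome 6, 86195223 to 86275719, plus strand) was below 10 CPM in every class of WT. Adenoma-enriched cells were above that, at 23.5 CPM (235 UMIs, 20.6 to 26.7) in *LApc* and 14.6 CPM (1604 UMIs, 13.9 to 15.3) in *LApcL*.

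The brakes differed from each other. *Lrig1* (ENSMUSG00000030029, chromosome 6, 94604529 to 94700158, minus strand) was highest in other Wnt/TA-like cells of all 3 libraries, at 25.4 CPM (915 UMIs, 23.8 to 27.1) in WT, 28.9 CPM (465 UMIs, 26.3 to 31.7) in *LApc* and 30.1 CPM (387 UMIs, 27.2 to 33.3) in *LApcL*. The 21.4 CPM of enteroendocrine-like cells in WT did not differ from it beyond counting error. Adenoma-enriched cells came next among these classes in *LApc* and *LApcL*, with 21.8 and 23.9 CPM, while cluster 9 of *LApc* had 30.9 CPM (18 UMIs, 18.3 to 48.8), an interval that takes in other Wnt/TA-like and adenoma-enriched cells. So does the interval of enteroendocrine-like cells in *LApcL*, at 23.1 CPM (50 UMIs, 17.2 to 30.5), for the levels of that library. *Errfi1* (ENSMUSG00000028967, chromosome 4, 150853919 to 150868892, plus strand) had 52.4 CPM (523 UMIs, 48.0 to 57.1) in adenoma-enriched cells of *LApc* and 19.0 CPM (2080 UMIs, 18.1 to 19.8) in those of *LApcL*. In enterocyte-like cells it stood at 20.5, 44.8 and 37.2 CPM in WT, *LApc* and *LApcL*, and in other Wnt/TA-like cells at 6.27, 14.05 and 10.4 CPM. In *LApc* the 47.3 CPM of enteroendocrine-like cells did not differ from the adenoma-enriched cells beyond counting error, and in *LApcL* enterocyte-like cells were the highest.

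**Figure D1:**
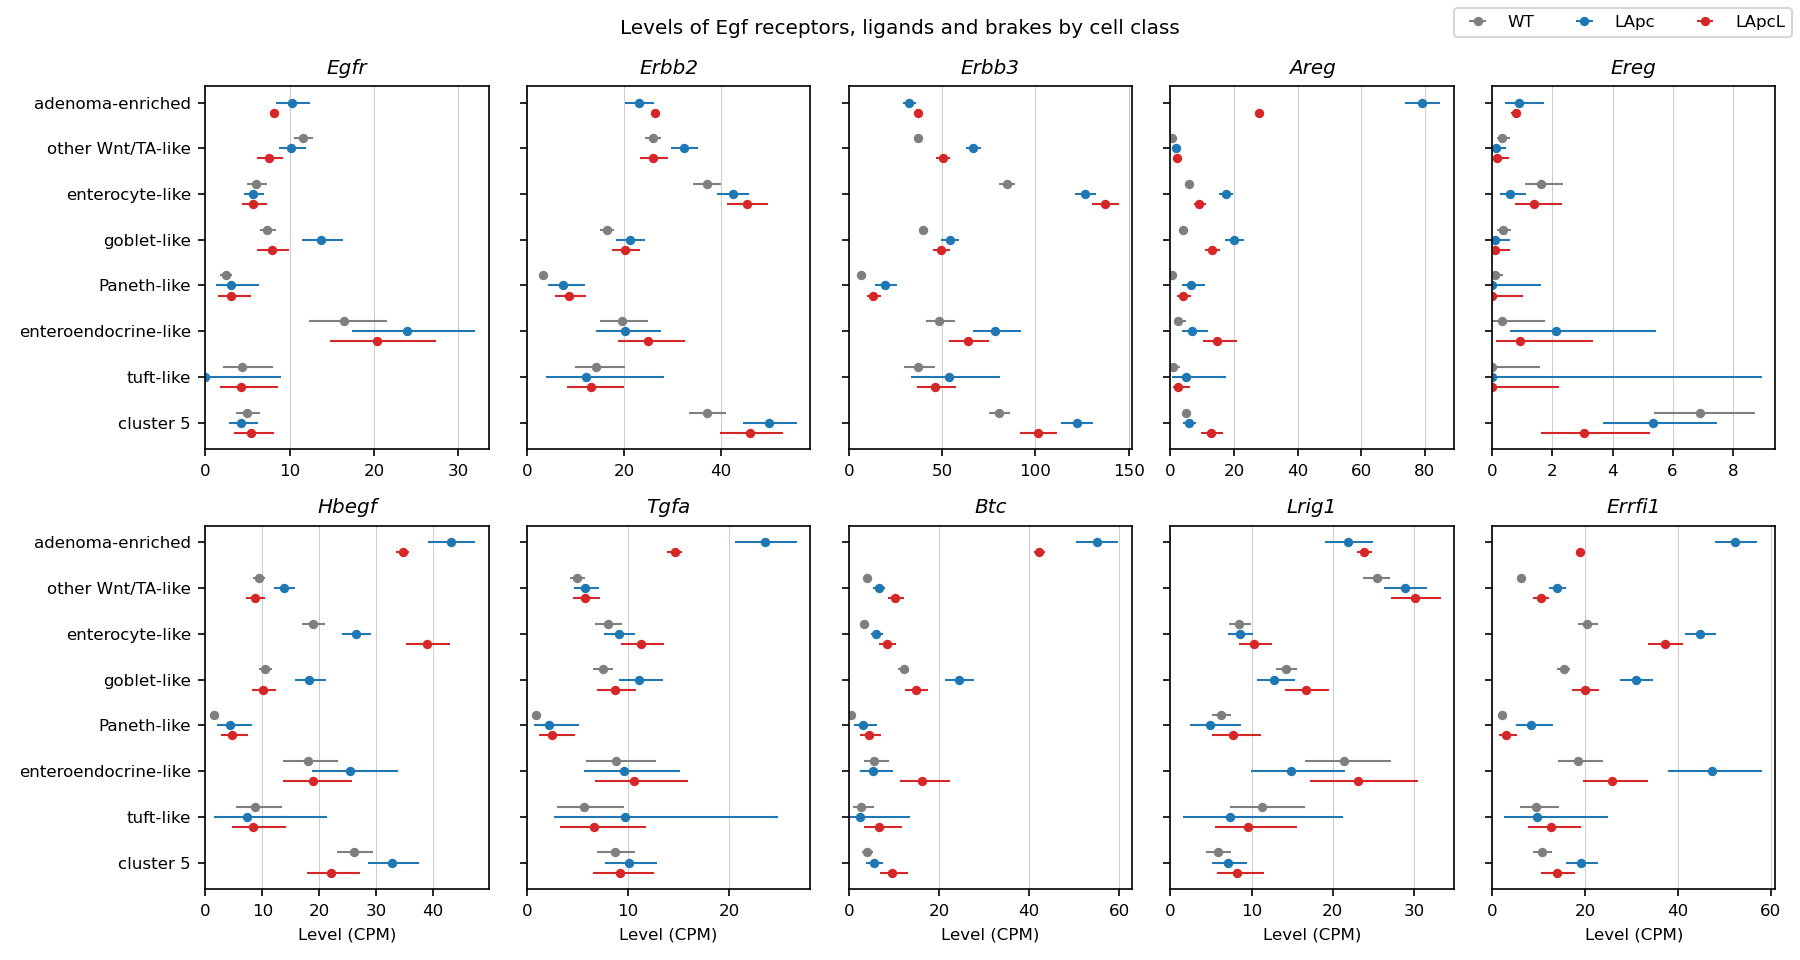
Level of each of the 10 genes (CPM, x axis with its own range in each panel) by cell class and library. Points are the level in 1 library and bars its exact 95% counting interval. *Areg*, *Btc* and *Tgfa* of *LApc* stand apart to the right in adenoma-enriched cells. *Errfi1* of *LApc* is about as high in enteroendocrine-like cells as there. *Erbb3* is highest in enterocyte-like cells and *Lrig1* in other Wnt/TA-like cells.

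Among the receptors, ligands and brakes, *Areg* (-1.50) and *Errfi1* (-1.47) had the log2 ratios of *LApcL* over *LApc* furthest from 0 in adenoma-enriched cells. They went opposite ways in enteroendocrine-like cells (1.10 and -0.87) and in cluster 5 (1.13 and -0.46). *Btc* is the neighbour of *Areg* that differed less in adenoma-enriched cells (-0.38), and the promoters of these genes are shown. The windows are the 250 bases before a RefSeq start (GRCm38.p6), 5′ to 3′ on the gene's strand, and *Errfi1* has 2 starts. Capitals mark matches, on either strand, to the full motifs searched, which were the TCF/LEF motif CTTTGA, the AP-1 motif TGANTCA, the CRE TGACGTCA and the SRF motif (CArG box).
Areg promoter, chr5:91139349-91139598, plus strand: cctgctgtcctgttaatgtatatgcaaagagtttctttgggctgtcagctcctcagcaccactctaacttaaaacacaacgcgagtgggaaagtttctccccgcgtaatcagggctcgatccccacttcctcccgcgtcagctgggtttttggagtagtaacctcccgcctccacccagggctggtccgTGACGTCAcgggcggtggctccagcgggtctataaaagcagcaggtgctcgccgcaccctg
Errfi1 promoter 1, chr4:150853546-150853795, plus strand: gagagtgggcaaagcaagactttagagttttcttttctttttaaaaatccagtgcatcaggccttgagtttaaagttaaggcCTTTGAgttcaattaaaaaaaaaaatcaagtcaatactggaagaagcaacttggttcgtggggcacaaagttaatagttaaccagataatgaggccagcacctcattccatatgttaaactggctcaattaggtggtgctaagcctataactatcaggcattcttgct
Errfi1 promoter 2, chr4:150854820-150855069, plus strand: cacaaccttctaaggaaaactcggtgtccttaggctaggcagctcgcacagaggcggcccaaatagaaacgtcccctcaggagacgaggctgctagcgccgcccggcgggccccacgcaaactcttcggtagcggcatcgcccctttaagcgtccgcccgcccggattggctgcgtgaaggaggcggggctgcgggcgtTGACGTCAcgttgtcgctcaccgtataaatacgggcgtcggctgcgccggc
Btc promoter, chr5:91402995-91403244, minus strand: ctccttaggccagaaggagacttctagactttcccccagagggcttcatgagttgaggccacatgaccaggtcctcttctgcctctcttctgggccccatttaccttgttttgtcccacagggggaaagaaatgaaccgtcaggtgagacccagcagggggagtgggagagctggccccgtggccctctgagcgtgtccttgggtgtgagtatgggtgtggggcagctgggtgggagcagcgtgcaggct
The *Areg* window held 1 CRE, 61 bases before the start, and so did promoter 2 of *Errfi1*, 51 bases before its start. Promoter 1 of *Errfi1* held 1 TCF/LEF motif at 168 bases, and the *Btc* window held none of the 4 motifs. Of 32851 promoter windows of this length, 1.55% held a CRE, 13.8% a TCF/LEF motif, 6.75% an AP-1 motif and 1.38% an SRF motif. The windows of *Tgfa*, *Lrig1*, *Egfr* and *Erbb2* held none of these. A CRE half-site, TGACG, was searched too, is not in capitals, and was in 17.8% of windows. It was found in *Btc* (113 bases before the start), in *Erbb2* (171 bases) and, outside the full CRE, in *Areg* (115 bases). A match is only a run of letters, and no binding was measured.

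The comparison of *LApc* with WT in other Wnt/TA-like cells asked how the crypt cells outside the adenoma-enriched subclusters differed. A gene was called when its levels differed by at least 1.5-fold with an interval of the log2 ratio that leaves out 0, and it was compared when it reached 10 CPM in either group. *Errfi1* and *Erbb3* were called higher in *LApc*, of 6 genes that reached the level, and none was called lower. Over all genes 4.79% were called higher and 2.55% lower. *Errfi1* stood at 14.05 CPM (226 UMIs, 12.3 to 16.0) in *LApc* against 6.27 CPM (226 UMIs, 5.48 to 7.14) in WT, a log2 ratio of 1.16 (0.89 to 1.44). *Erbb3*, with 66.6 CPM (1072 UMIs, 62.7 to 70.8) against 36.9 CPM (1331 UMIs, 35.0 to 39.0), had a ratio of 0.85 (0.73 to 0.97). *Hbegf* (0.56, 0.31 to 0.81) and *Erbb2* (0.32, 0.16 to 0.48) were also above WT beyond counting error but under 1.5-fold, and *Egfr* (-0.19, -0.46 to 0.08) and *Lrig1* (0.19, 0.02 to 0.35) were close to level. The summed level of the immediate-early genes *Fos*, *Egr1*, *Junb* and *Ier2*, which growth factors and tissue dissociation both induce, was 180 CPM in *LApc* and 114 CPM in WT in these cells. Its part in the *Errfi1* difference was not tested. Scaled by the trimmed mean of M-values (TMM), which centres the bulk of genes, all genes split into 281 higher and 261 lower in place of 363 and 193, and *Errfi1* and *Erbb3* were called as before.

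Goblet-like and enterocyte-like cells of *LApc* differed from WT most in *Areg*. In goblet-like cells 5 of the 9 genes compared were called higher and none lower, where 5.13% of all genes were called higher and 9.22% lower. *Areg* was 19.9 CPM (190 UMIs, 17.2 to 23.0) against 3.96 CPM (126 UMIs, 3.30 to 4.71), a log2 ratio of 2.33 (2.00 to 2.67). The others were *Errfi1* (1.01, 0.80 to 1.22), *Btc* (1.00, 0.76 to 1.24), *Egfr* (0.90, 0.58 to 1.22) and *Hbegf* (0.80, 0.52 to 1.06). In enterocyte-like cells 2 of 5 were called higher and none lower, against 7.05% and 6.03% of all genes. They were *Areg*, at 17.3 CPM (266 UMIs, 15.3 to 19.5) against 5.73 CPM (102 UMIs, 4.67 to 6.95) (1.60, 1.26 to 1.94), and *Errfi1* (1.13, 0.94 to 1.31). *Ereg*, below the level with 9 UMIs in *LApc* and 29 in WT, had -1.47 (-2.74 to -0.36). Under TMM these calls held, and *Erbb3* in enterocyte-like cells (0.62, 0.52 to 0.72) and *Tgfa* in goblet-like cells (0.62, 0.27 to 0.95) were called higher too. Unscaled, they were just under 1.5-fold, with 0.58 (0.48 to 0.68) and 0.57 (0.23 to 0.91). All genes split under TMM into 403 higher and 485 lower in goblet-like and 562 and 357 in enterocyte-like cells. For every 100 UMIs of *Clu*, an abundant transcript of adenoma-enriched cells, those cells of *LApc* held 4.40 *Areg* UMIs, goblet-like cells 58.5 and enterocyte-like cells 60.05, and the part of RNA set free from other cells was not tested. The immediate-early sum was 330 CPM in goblet-like cells of *LApc* against 238 in WT, and 290 against 172 CPM in enterocyte-like cells, and its part was not tested.

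Within the *LApc* library, where mouse, day and depth are shared, adenoma-enriched cells were set against other Wnt/TA-like cells. The ligands that reached the level and the brake *Errfi1* were higher, and the receptor *Erbb3* was lower. *Areg* led with a log2 ratio of 5.56 (5.01 to 6.17), a 47.1-fold difference. It was followed by *Btc* with 3.05 (2.75 to 3.36), *Tgfa* with 2.03 (1.67 to 2.39), *Errfi1* with 1.90 (1.67 to 2.13) and *Hbegf* with 1.65 (1.41 to 1.89). *Erbb3* had -1.04 (-1.22 to -0.86). These 5 higher and 1 lower were of 9 genes compared, beside 27.8% and 11.3% of all genes in a comparison of very unlike cells. *Erbb2* (-0.49, -0.72 to -0.26) and *Lrig1* (-0.40, -0.64 to -0.17) were lower by under 1.5-fold, and *Egfr* was level (0.00, -0.37 to 0.37). *Ereg*, with 9 against 2 UMIs, was too low to be compared by the rule and had 2.86 (0.59 to 6.11).

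The *LApcL* library gave the same 5 genes as higher and none as lower, of 8 compared, with 17.4% and 7.58% of all genes called. The ratios were 3.68 (3.15 to 4.27) for *Areg*, 2.03 (1.78 to 2.29) for *Btc*, 2.00 (1.73 to 2.29) for *Hbegf*, 1.34 (1.01 to 1.70) for *Tgfa* and 0.86 (0.61 to 1.12) for *Errfi1*. *Erbb3* had -0.45 (-0.57 to -0.32) and *Lrig1* -0.33 (-0.49 to -0.18). For *Ereg*, again below the level, 86 against 2 UMIs gave 2.33 (0.43 to 5.40). In both libraries the median gene also stood higher in adenoma-enriched cells, by 0.21 in *LApc* and 0.19 in *LApcL* on the log2 scale. Under TMM the same 5 genes were called higher in both libraries, and 3 were called lower in *LApc*, with *Erbb3* at -1.31 (-1.50 to -1.13), *Erbb2* at -0.77 (-0.995 to -0.54) and *Lrig1* at -0.68 (-0.92 to -0.45). In *LApcL* TMM gave 1 lower call, *Erbb3* at -0.61 (-0.73 to -0.49). All genes split under TMM into 1607 higher and 1768 lower in *LApc* and 977 and 829 in *LApcL*, from 2390 and 968, and 1373 and 599. These subclusters were chosen because WT lacked them, so the ratios describe them and do not test them.

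**Figure D2:**
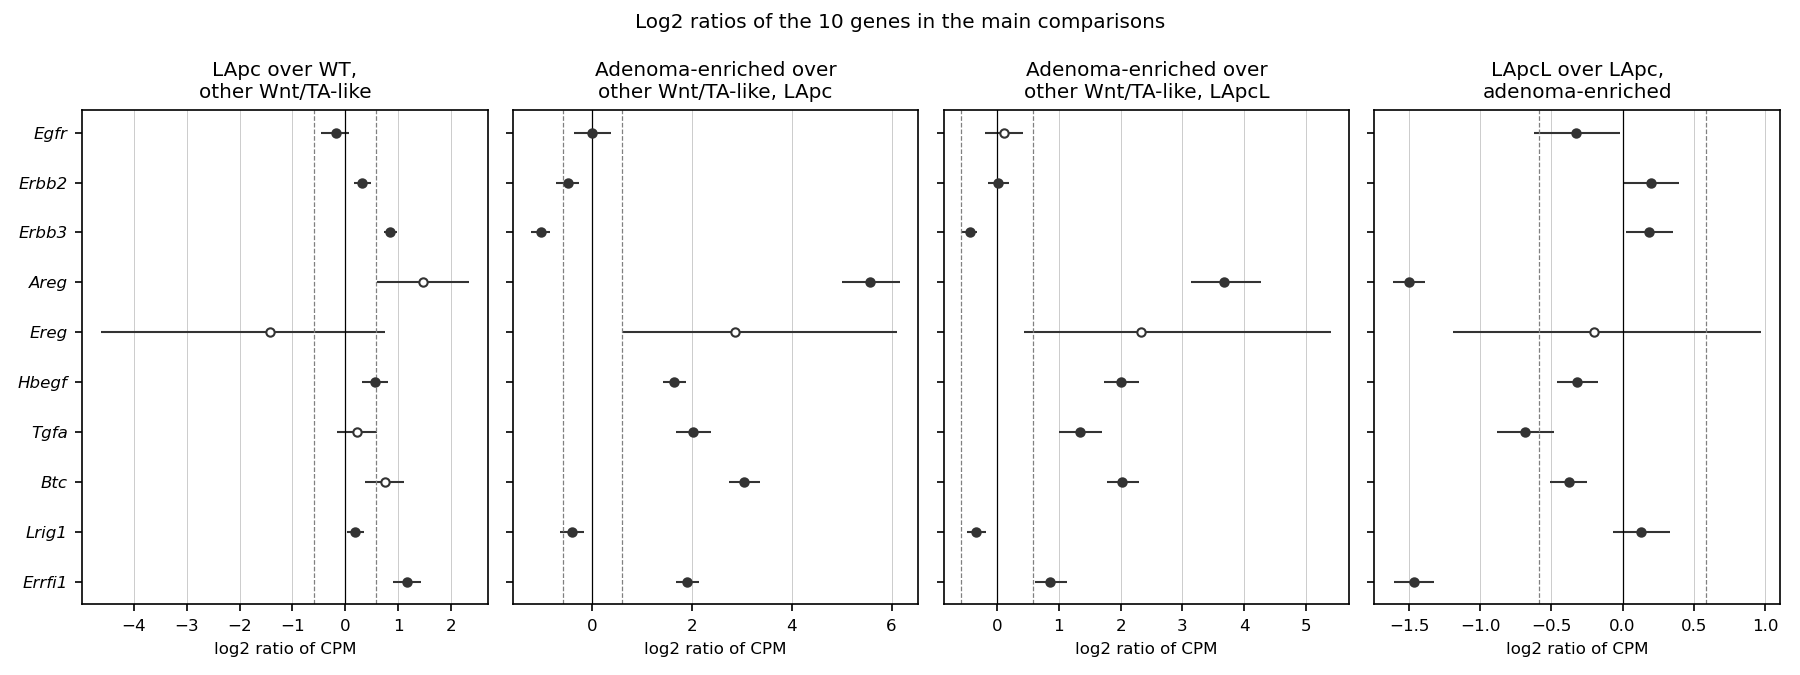
Log2 ratios of the level (x axis, own range in each panel) of the 10 genes in 4 comparisons, with exact 95% counting intervals as bars. Dashed lines mark 1.5-fold, and open circles are genes below 10 CPM on both sides. *Areg*, *Btc*, *Tgfa* and *Hbegf* lie to the right in both adenoma comparisons, as does *Ereg* with a wide interval and an open circle, and *Areg* and *Errfi1* lie to the left in *LApcL* over *LApc*.

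The share of cells with a UMI was taken after each cell had been thinned to 3000 UMIs. In adenoma-enriched cells of *LApc*, 32.9% (30.3 to 35.6) carried a UMI of at least 1 ligand, against 25.5% (24.7 to 26.5) in *LApcL*. For other Wnt/TA-like cells WT gave 5.53% (4.76 to 6.38), *LApc* 7.82% (6.72 to 9.04) and *LApcL* 8.23% (6.81 to 9.83). Different ligands in the same cell were rarer, with 8.62% (7.11 to 10.3) of adenoma-enriched cells in *LApc* and 3.80% (3.41 to 4.21) in *LApcL*. A UMI of any of the 3 receptors was found in 17.6% (15.5 to 19.8) and 19.7% (18.9 to 20.6), and of a ligand together with a receptor in 5.77% (4.54 to 7.23) and 5.55% (5.08 to 6.03). In enterocyte-like cells of *LApc* and *LApcL* a receptor was found in 40.4% and 41.4%, and both in 6.36% and 8.60%. Other Wnt/TA-like cells had 26.5% and 21.4% with a receptor, and 2.09% and 1.65% with both. Carrying both was thus not particular to adenoma-enriched cells. In adenoma-enriched cells the intervals of the ligand-bearing share did not overlap between the libraries, and those of the share with both a ligand and a receptor did. Within the 4 subclusters of these cells, described further on, the ligand-bearing shares of *LApc* and *LApcL* were closer. They were 23.8% (18.0 to 30.5) and 21.9% (20.5 to 23.4) in subcluster 1, 29.9% (23.7 to 36.7) and 26.0% (24.4 to 27.6) in subcluster 2, and 41.9% (38.1 to 45.8) and 38.4% (36.1 to 40.8) in subcluster 3. In subcluster 5 the order was the opposite, with 11.8% (7.34 to 17.6) and 17.7% (15.8 to 19.8). The intervals overlapped in each of the 4, whose mix differed between the libraries.

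The comparison of *LApcL* with *LApc* in adenoma-enriched cells asked how far this pattern differed between these libraries. *Areg*, *Errfi1* and *Tgfa* were lower in *LApcL*, and no receptor was called in these pooled cells. *Areg* stood at 27.9 CPM (3067 UMIs, 27.0 to 29.0) in *LApcL* against 79.1 CPM (790 UMIs, 73.7 to 84.8) in *LApc*, which is 2.83-fold lower, with a log2 ratio of -1.50 (-1.61 to -1.39). *Errfi1*, at 19.0 CPM (2080 UMIs, 18.1 to 19.8) against 52.4 CPM (523 UMIs, 48.0 to 57.1), had a ratio of -1.47 (-1.61 to -1.33). *Tgfa*, at 14.6 CPM (1604 UMIs, 13.9 to 15.3) against 23.5 CPM (235 UMIs, 20.6 to 26.7), had -0.69 (-0.89 to -0.48). These 3 of 9 were called lower and none higher, where 15.8% of all genes were called lower and 3.35% higher. *Btc* (-0.38, -0.51 to -0.25), *Egfr* (-0.33, -0.63 to -0.02) and *Hbegf* (-0.32, -0.46 to -0.17) were lower by under 1.5-fold. *Erbb2* (0.20, 0.00 to 0.40), *Erbb3* (0.18, 0.02 to 0.35) and *Lrig1* (0.13, -0.07 to 0.34) were slightly above *LApc*.

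The thinned shares of cells were lower in *LApcL* for *Errfi1*, *Areg*, *Btc* and *Tgfa*. *Areg* was found in 12.0% (10.3 to 13.98) of adenoma-enriched cells in *LApc* and 5.55% (5.08 to 6.03) in *LApcL*, a difference of -6.49 percentage points (-8.48 to -4.72). *Errfi1* was in 14.1% (12.2 to 16.2) and 5.84% (5.37 to 6.34), *Btc* in 14.2% (12.3 to 16.3) and 10.6% (10.0 to 11.3), and *Tgfa* in 7.40% (6.00 to 9.01) and 4.20% (3.80 to 4.63). The differences were -8.31 percentage points (-10.4 to -6.40) for *Errfi1*, -3.61 percentage points (-5.76 to -1.66) for *Btc* and -3.20 percentage points (-4.84 to -1.80) for *Tgfa*. Without thinning the shares of *Areg* were 20.5% and 14.9%. As a background, no tuft-like cell of WT or *LApc* carried an *Areg* UMI after thinning, with upper limits of 1.41% and 4.99%. Other Wnt/TA-like cells of WT had a share of 0.157%. Their median depth was 10569 UMIs against 7505 and 11491 in the adenoma-enriched cells. The difference in *Hbegf* was 0.0332 percentage points (-1.80 to 1.64) and that in *Erbb3* 1.69 percentage points (-0.200 to 3.36).

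How much of a difference was called depended on the scale and on the cells compared. The median log2 ratio of all genes was -0.10, and TMM takes -0.23 as its zero. All genes then split into 892 called higher and 881 lower, against 280 and 1321 before. *Areg* (-1.27, -1.38 to -1.15) and *Errfi1* (-1.23, -1.37 to -1.09) were called lower under TMM as well, *Tgfa* was not (-0.45, -0.65 to -0.25), *Erbb3* was 0.42 (0.26 to 0.59) and *Hbegf* -0.08 (-0.23 to 0.06). Of the adenoma-enriched cells of *LApc*, 37 of 1267 held an immune-marker UMI, and of *LApcL* 214 of 9161. Without them the ratios were -1.51 for *Areg*, -1.48 for *Errfi1* and -0.71 for *Tgfa*. For the immediate-early sum, *LApc* had 477 CPM and *LApcL* 296 CPM. Among cells without a UMI of these 4 genes after thinning, *Areg* had a ratio of -1.10, *Errfi1* -1.29 and *Tgfa* -0.28, which for *Tgfa* is no call. When the Wnt/TA-like cells were subclustered without correction for library, only 10 cells of *LApc* and 24 of *LApcL* fell outside the subclusters poor in WT. Over nearly all Wnt/TA-like cells *Areg* then had -0.31, *Errfi1* -0.67 and *Tgfa* 0.12.

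The adenoma-enriched cells were made of 4 subclusters, whose mix differed between the libraries. Subcluster 3, led by *Wfdc18* and *Clu*, took 54.0% of them in *LApc* and 18.1% in *LApcL*. Subcluster 1, led by *S100g*, took 15.3% and 34.4%. Subcluster 2, led by *Mt4* and holding *S100a6*, took 16.3% and 31.9%, and subcluster 5, with the stomach genes *Atp4a* and *Pgc*, 14.4% and 15.5%. *S100g* stood at 7786 CPM in subcluster 1 and at 8854 CPM in subcluster 5. The cycling marker *Mki67* stood at 142 and 115 CPM in subclusters 1 and 2, and at 20.8 and 16.8 CPM in subclusters 3 and 5. *Areg* was highest in subcluster 3 of both libraries, with 118 CPM (568 UMIs, 108 to 128) in *LApc* and 66.0 CPM (1101 UMIs, 62.2 to 70.0) in *LApcL*. It was lower in *LApcL* in subclusters 1 (-1.41, -1.74 to -1.06), 2 (-1.08, -1.33 to -0.81) and 3 (-0.83, -0.98 to -0.68). In subcluster 5 it was near absent in *LApc*, at 1.73 CPM (2 UMIs, 0.209 to 6.24), against 6.49 CPM (85 UMIs, 5.18 to 8.02) in *LApcL*.

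*Errfi1* was lower in *LApcL* in each of the 4 subclusters, with ratios of -0.80, -1.24, -1.21 and -0.90 in subclusters 1, 2, 3 and 5. With the 4 subclusters given equal weight in both libraries, *Errfi1* had a ratio of -1.08, *Areg* -0.93 and *Tgfa* -0.26. The *Tgfa* difference was therefore called in the pooled cells and not at an equal mix. Within subclusters *Tgfa* was called lower in 1 (-0.70, -1.16 to -0.20), though not under TMM (-0.54). It was lower by under 1.5-fold in 3 (-0.52, -0.79 to -0.24). The intervals took in 0 in 2 (-0.09, -0.63 to 0.50) and 5 (0.97, -0.04 to 2.20, 8 UMIs in *LApc*). *Btc* was also highest in subcluster 3, and there it stood at 69.3 CPM (335 UMIs, 62.1 to 77.1) in *LApc* and 69.5 CPM (1160 UMIs, 65.6 to 73.6) in *LApcL*, a log2 ratio of 0.00 (-0.17 to 0.18). *Erbb3* ran the other way. It was higher in *LApcL* in subclusters 1 (0.52, 0.06 to 1.02), 2 (0.62, 0.22 to 1.06) and 3 (0.52, 0.29 to 0.75) and not in subcluster 5 (-0.26, -0.68 to 0.19), and by the call rule this was a call in subcluster 2, while under TMM it was one in 1 (0.68, 0.22 to 1.18) and 3 (0.72, 0.49 to 0.96) too. The other receptors also had a call within 1 subcluster each. *Erbb2* was higher in *LApcL* in subcluster 3 (0.74, 0.43 to 1.06), and *Egfr* was lower in subcluster 2 (-0.77, -1.32 to -0.16). *Hbegf* was lower beyond counting error in subcluster 2 (-0.52, -0.80 to -0.23) and not in subclusters 1 (-0.23, -0.59 to 0.14), 3 (0.20, -0.01 to 0.42) and 5 (-0.51, -0.99 to 0.02).

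**Figure D3:**
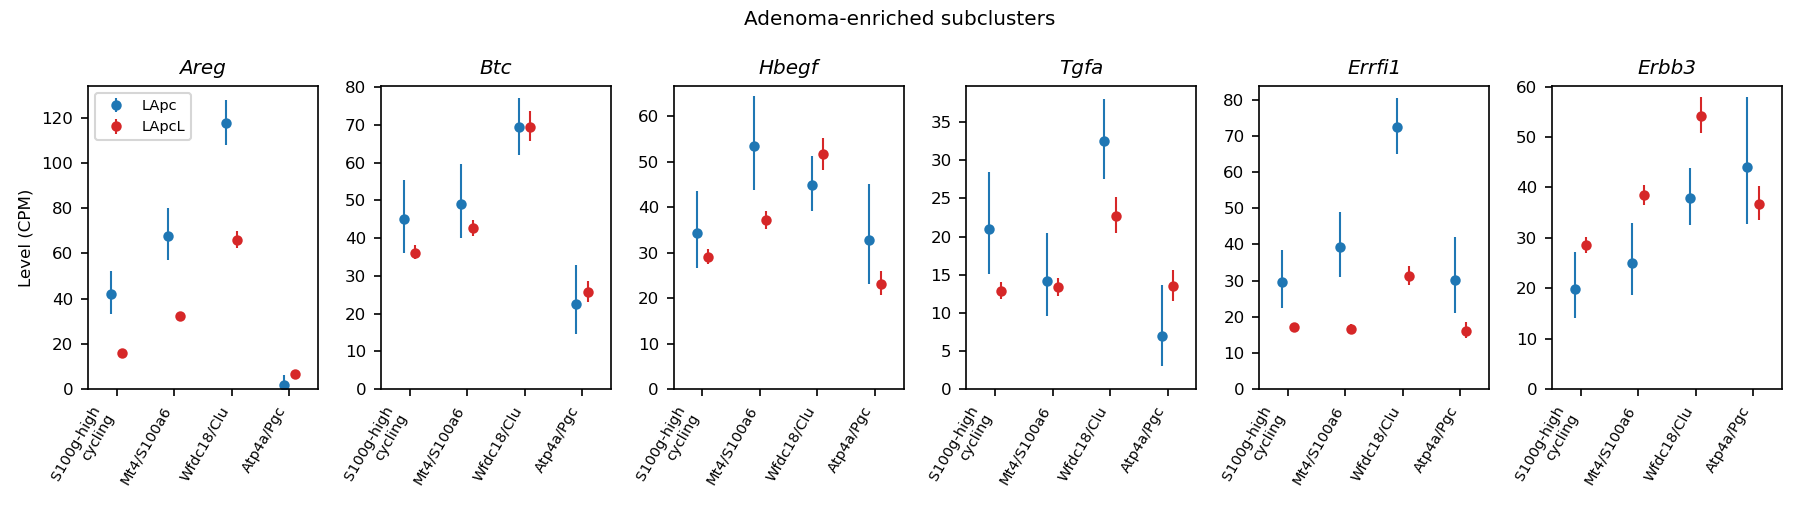
Level of 6 genes (CPM, y axis from 0) in the 4 adenoma-enriched subclusters of *LApc* and *LApcL*, with exact 95% counting intervals as bars. Each panel shows the subclusters 1, 2, 3 and 5 from left to right. The label of subcluster 1 names *S100g* and cycling, traits that other subclusters share. *Areg* is highest in the *Wfdc18*/*Clu* subcluster 3 and near 0 in the *Atp4a*/*Pgc* subcluster 5, and *Errfi1* of *LApc* lies above *LApcL* in all 4.

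*LApcL* was also set against *LApc* outside the adenoma-enriched cells. In goblet-like cells 5 of 9 were called lower in *LApcL* and none higher, with 5.21% and 13.8% of all genes. They were *Hbegf* (-0.85, -1.23 to -0.48), *Egfr* (-0.81, -1.25 to -0.39), *Btc* (-0.72, -1.04 to -0.41), *Errfi1* (-0.64, -0.91 to -0.37) and *Areg* (-0.62, -0.97 to -0.29), the same genes that were higher in *LApc* than in WT, and both comparisons share the *LApc* library. In other Wnt/TA-like cells *Btc* was called higher (0.64, 0.26 to 1.02) and *Hbegf* lower (-0.68, -1.02 to -0.34), 1 and 1 of 7 compared, beside 1.47% higher and 4.08% lower over all genes. In enterocyte-like cells only *Areg* of 7 was called, lower with -0.94 (-1.30 to -0.59), beside 5.48% lower and 9.42% higher. *Hbegf* was higher there by less than 1.5-fold, with 0.56 (0.36 to 0.76). Under TMM these calls were the same, while all genes split into 405 higher and 653 lower in goblet-like, 447 and 618 in enterocyte-like and 142 and 223 in other Wnt/TA-like cells, from 981 and 370, 674 and 392, and 111 and 308. Goblet-like cells of *LApcL* had an immediate-early sum of 225 CPM against 330 CPM in *LApc*, and its part was not tested.

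The rest of the pathway was read from 5 lists with 65 genes in all, chosen with earlier results of these data known. Of these genes 49 reached the level in the comparison of *LApcL* with *LApc* in pooled adenoma-enriched cells, whose subcluster mix differed. In *LApcL* 16 were lower and 1 higher, and Erk target genes and feedback brakes made up 12 of the lower ones. Of all genes 15.8% were called lower and 3.35% higher. Of 12 target genes of Erk, 5 were lower and none higher, with a median log2 ratio of -0.53 beside -0.10 over all genes tested. *Phlda1*, which also inhibits Akt signalling, stood at 460 CPM in *LApc* and 98.1 CPM in *LApcL* (-2.23, -2.28 to -2.18), and *Ier3* had -2.13 (-2.21 to -2.05), *Fosl1* -1.35 (-1.63 to -1.07), *Junb* -0.93 (-0.99 to -0.87) and *Egr1* -0.75 (-0.89 to -0.60). Of 14 feedback brakes compared (of 20), 7 were lower and none higher, with a median of -0.68. The largest differences were in *Dusp1* (-2.85, -3.09 to -2.60) and *Dusp6* (-2.70, -2.92 to -2.48), phosphatases of the MAP kinases, of which Erk is only a part. Next came the cytokine brake *Socs3* (-2.61, -2.83 to -2.40), the ubiquitin ligase *Cblb* (-1.62, -1.87 to -1.36) and the receptor phosphatase *Ptprj* (-1.05, -1.22 to -0.87). Within subcluster 3 alone *Phlda1* stood at 647 CPM in *LApc* against 157 in *LApcL*, and *Dusp6* at 38.1 against 7.73 CPM.

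Of 17 receptor adaptors and kinases compared, 2 were lower, *Pik3r1* (-0.71, -0.83 to -0.59) and *Map2k1* (-0.62, -0.75 to -0.49), and the median was -0.12. Of 6 genes of ligand processing compared, *Mmp7*, a secreted protease, and *Rhbdf2*, a partner of the shedding protease Adam17, were lower, with -1.37 (-1.42 to -1.32) and -1.04 (-1.29 to -0.77), and *Cnih4*, a cargo receptor that helps Tgfa-like proteins leave the endoplasmic reticulum, was higher (0.79, 0.70 to 0.89). None of the 7 other receptors and ligands of the family, *Erbb4*, *Egf*, *Epgn* and *Nrg1* to *Nrg4*, reached 10 CPM in these cells. Under TMM *Egr1* (-0.51, -0.66 to -0.36), *Pik3r1* (-0.48, -0.60 to -0.35) and *Map2k1* (-0.39, -0.52 to -0.26) were not called, and the other pathway calls held. Several Erk targets are also immediate-early genes, whose sum differed between the libraries as given above.

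**Figure D4:**
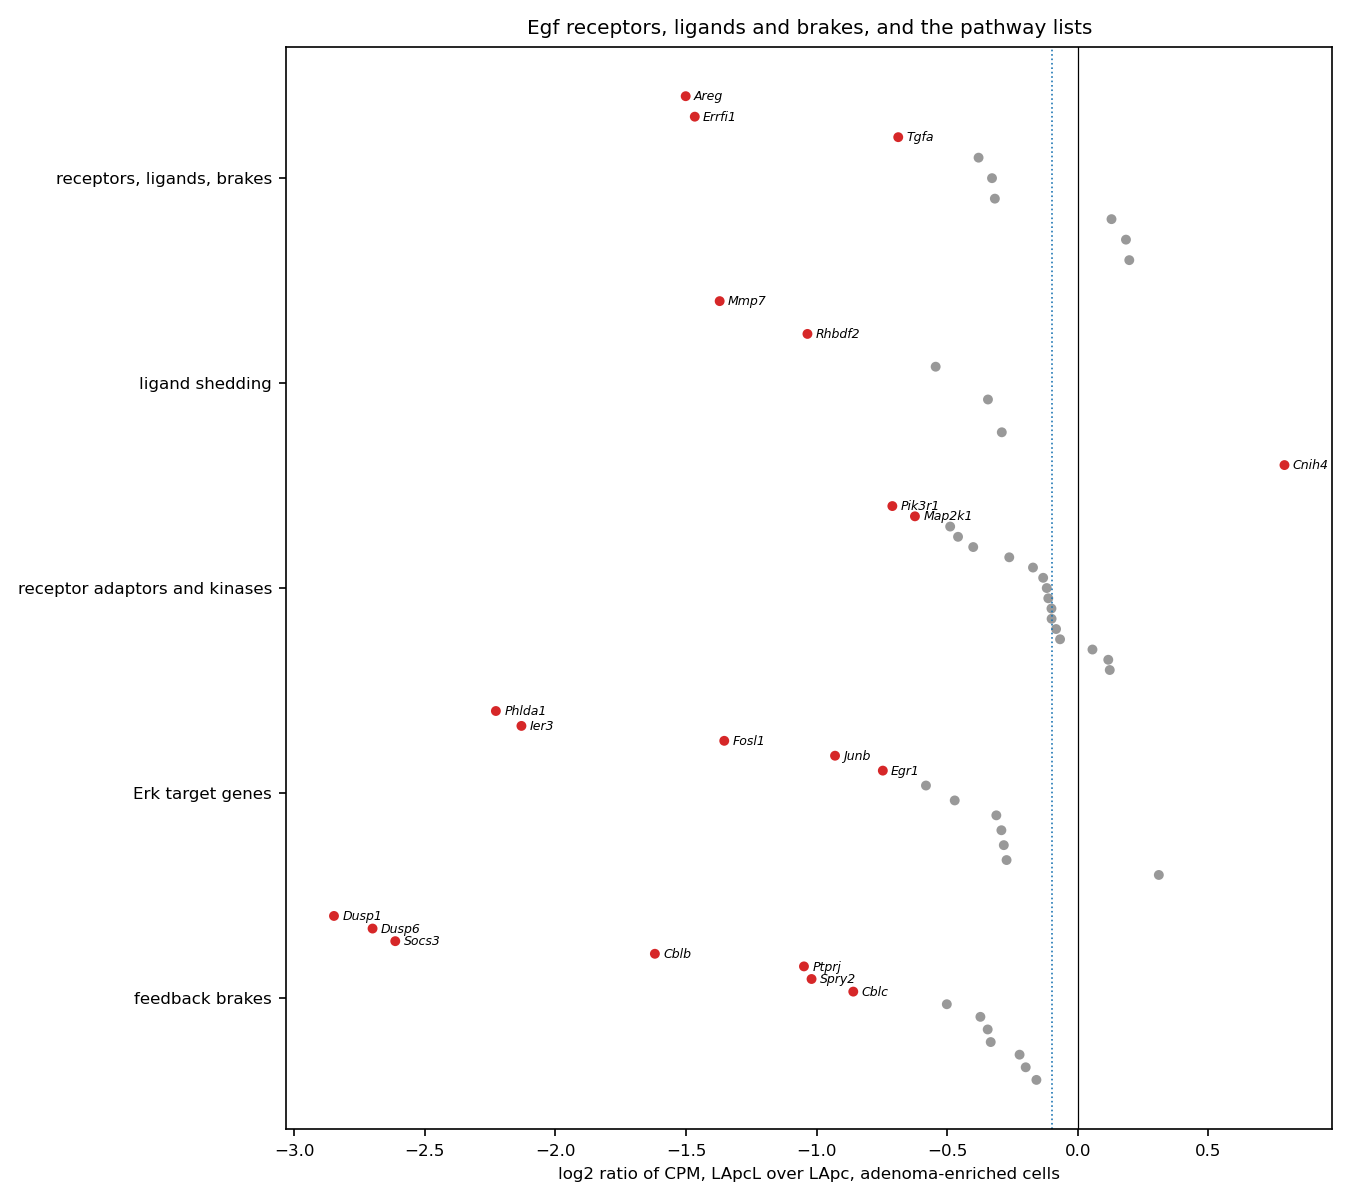
Log2 ratios of the level in *LApcL* over *LApc*, adenoma-enriched cells (x axis), for the receptors, ligands and brakes and for 4 pathway lists (y axis), with each point 1 gene. Red and named points were called, grey points were not, and the dotted line is the median of all genes tested, -0.10. The Erk target genes and the feedback brakes reach furthest to the left.

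Set against other Wnt/TA-like cells of their own library, adenoma-enriched cells had 26 pathway genes higher and 1 lower of 50 compared in *LApc*, and 18 higher and 2 lower of 43 in *LApcL*. The shares over all genes were 27.8% higher and 11.3% lower in *LApc*, and 17.4% and 7.58% in *LApcL*. The Erk targets accounted for 8 of the higher genes in each. In *LApc* they included *Ier3* (4.79, 4.52 to 5.08), *Etv5* (4.41, 3.89 to 4.97) and *Phlda1* (3.74, 3.61 to 3.87), and in *LApcL* *Etv5* (2.92, 2.50 to 3.36) and *Ier3* (2.86, 2.54 to 3.20). Feedback brakes were higher for 10 genes of 15 in *LApc* and for 2 of 10 in *LApcL*. *Dusp4* was higher in both, with 3.505 (2.86 to 4.22) and 2.63 (2.096 to 3.23). *Lrig3*, a relative of *Lrig1*, was lower in both, with -3.11 (-3.75 to -2.52) and -4.74 (-5.17 to -4.34). In *LApc* over WT, other Wnt/TA-like cells, 3 of 36 pathway genes were higher, *Junb* (1.06, 0.90 to 1.23), *Spry2* (0.94, 0.68 to 1.21) and *Fos* (0.67, 0.47 to 0.85), and none lower, beside 4.79% and 2.55% of all genes.

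Goblet-like cells of *LApc* had 6 pathway genes higher and 1 lower than WT of 40 compared, among them the brakes *Spry1* (1.14, 0.80 to 1.47) and *Dusp1* (1.13, 0.84 to 1.41), where 5.13% of all genes were higher and 9.22% lower. Goblet-like cells of *LApcL* had 6 lower and 2 higher than *LApc* of 40, among them *Dusp1* (-1.36, -1.80 to -0.94) and *Dusp6* (-0.98, -1.36 to -0.61), where 5.21% of all genes were lower and 13.8% higher. In enterocyte-like cells 4 were higher and 2 lower of 39 in *LApc* over WT, beside 7.05% and 6.03% of all genes. In *LApcL* over *LApc* 3 were higher and 3 lower of 39, beside 9.42% and 5.48%, and these shares lie near the background. In other Wnt/TA-like cells 1 was higher, *Mmp7* (1.18, 1.03 to 1.34), and 2 were lower, *Fos* (-0.96, -1.24 to -0.69) and *Spred1* (-0.83, -1.16 to -0.51), of 35 in *LApcL* over *LApc*, beside 1.47% and 4.08%.

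The genes whose levels ran most like each member were found over 23 units, each a cell class of 1 library, by Pearson's r of log2(CPM + 10). Units of a library share its depth and mouse, so r is a description. For *Areg* they were Il33 (0.92), Ctse (0.88) and Ly6d (0.87), and for *Btc* S100a14 (0.92), Ly6e (0.89) and S100a6 (0.89). *Hbegf* ran with Fosl2 (0.91) and Ugcg (0.91), and *Tgfa* with Junb (0.90), Abhd12 (0.90) and Smad7 (0.90). The receptors had other partners, Oxr1 (0.90), Ncald (0.90) and Tox3 (0.88) for *Egfr*, Plpp2 (0.97), Coro1c (0.97) and Net1 (0.96) for *Erbb2*, and Ppm1a (0.96), Mcu (0.96) and Fat1 (0.94) for *Erbb3*. *Lrig1* ran with Dek (0.95), Hist1h1e (0.93) and Birc5 (0.93), of which *Birc5* is a cell-cycle gene, and *Errfi1* with Clcn3 (0.88), Ifrd1 (0.87) and Ero1l (0.86).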

How the data were processed

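Droplet libraries of sorted epithelium were made and sequenced by the authors, who counted UMIs with Cell Ranger 2.1.1 on mm10 (GRCm38), per the labels and the study's methods, which name alternative kit versions without saying which library had which. They deposited raw UMI counts for each gene in each barcode, and the authors' cell annotation was not used here. As in the study, barcodes in the lowest or highest 1% by number of genes and those over 20% mitochondrial UMIs (0.541%, 17.7% and 2.38% in WT, *LApc* and *LApcL*) were removed. Doublets were scored with Scrublet (scanpy 1.11.5). Its automatic threshold marked 4 cells of *LApc*, so, after that outcome was seen, the highest scores were removed at the rate expected from the barcode number (1023, 1135 and 2326 cells).

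Libraries were integrated in Seurat 5.3.0 (R 4.3.3) and clustered at resolution 0.2 with 20 components, without 75 listed genes. A cluster was named when at least 3 markers of a class were raised. The numeric limits, chosen once the clusters were known, left cluster 5 and a globin-led cluster 9 (48, 175 and 256 cells) unnamed. Wnt/TA-like cells were corrected by mutual nearest neighbours and subclustered at resolution 0.4 (leidenalg 0.10.2). Subclusters with under 10% WT cells, at equal library weights, were adenoma-enriched. Immune, stromal and epithelial marker lists named no class.

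Counts were summed per class and library. Intervals at 95% are exact Poisson for CPM, conditional binomial for log2 ratios and Clopper-Pearson for shares, and 0 UMIs were taken to allow up to 3. Cells are not replicates, so no p-value was computed. Ratios were tested on simulated counts. Cells were thinned to 3000 UMIs for shares, and shallower cells left out. All 10 genes are named, with at most the 5 largest called pathway genes per list and comparison, and the 3 genes most like each gene, among genes at 50 CPM or more in a unit, of which 1 is not reported here. The genes and lists were chosen with earlier results of these data known. Gene positions are from GENCODE M21. RefSeq promoters matched 7 genes, in 8 windows, and the alternatives tried are given with their effects.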

Additional observations from a re-analysis of the deposited data

Results flagged for a closer look

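The following genes moved, between *LApc* and *LApcL*, one way in adenoma-enriched cells and the opposite way in another class, each beyond counting error. The difference between the classes was not tested, and each class has 1 library per genotype. In other Wnt/TA-like cells *Erbb2* had a log2 ratio of *LApcL* over *LApc* of -0.31 and *Erbb3* one of -0.41, against 0.20 and 0.18 in adenoma-enriched cells. *Erbb3* was also lower in cluster 5, with -0.27. Under TMM scaling these were -0.24, -0.34 and -0.37, against 0.43 and 0.42 in adenoma-enriched cells.

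*Areg* was higher in *LApcL* in enteroendocrine-like cells, with 1.10 (32 and 13 UMIs), and in cluster 5, with 1.13 (54 and 37 UMIs), against -1.50 in adenoma-enriched cells. TMM gave 1.00, 1.03 and -1.27. *Btc* was higher in other Wnt/TA-like cells, with 0.64, and in enteroendocrine-like cells, with 1.61 (35 and 10 UMIs), against -0.38 in adenoma-enriched cells, where TMM left -0.14 (-0.27 to -0.01). *Hbegf* was higher in enterocyte-like cells, with 0.56, against -0.32 in adenoma-enriched cells, where TMM left -0.08 (-0.23 to 0.06). Under TMM the interval in adenoma-enriched cells took in 0 for *Hbegf* and not for *Btc*. *Clu*, the abundant transcript of adenoma-enriched cells, stood at 34.0 CPM in enteroendocrine-like cells of *LApc* and 172 CPM in those of *LApcL*, and its part in the higher *Areg* and *Btc* there was not tested.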

How the results depend on the processing

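No paired analysis was possible because each genotype had 1 library. Of 416 values of single genes under the alternatives, 336 moved by less than their counting interval, 63 moved by more in the same direction and 17 changed sign. Doublet removal at the upper 20% of scores, a mitochondrial limit of 10%, resolution 0.4 and classes by marker score each left *Areg*, *Errfi1* and *Tgfa* called lower in *LApcL* over *LApc*, and a WT limit of 5% selected the same subclusters.

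Without the neighbour correction, which in that comparison left few cells outside, 1 gene was called higher and 1 lower, and *Erbb2* (-0.12), *Erbb3* (-0.49), *Hbegf* (0.35), *Tgfa* (0.12) and *Btc* (0.63) changed sign. For the other comparisons it left 10, 10 and 24 cells in the smaller group and was not run. In subcluster 5 alone 1 gene was called lower, and *Egfr* (1.39), *Erbb2* (-0.55), *Erbb3* (-0.26), *Areg* (1.91), *Tgfa* (0.97) and *Btc* (0.20) changed sign. In subcluster 3 alone 1 was called higher, and *Egfr* (0.064), *Hbegf* (0.20) and *Btc* (0.0044) changed sign, and in subcluster 2 alone 1 was called higher. Without cells holding an immediate-early UMI, *Egfr* (0.084) and *Hbegf* (0.19) changed sign. These last settings were chosen after seeing the data. With totals that leave out ribosomal protein and mitochondrial genes, 4 genes were called higher in *LApc* over WT. That setting and TMM each gave 3 lower calls in *LApc* and 1 in *LApcL* for adenoma-enriched over other Wnt/TA-like cells. Without thinning, the share of cells was higher in *LApcL* for 5 genes and lower for 2, and the difference of *Btc* turned to 1.98 percentage points. Of the pathway genes, 0 were called higher at 2-fold and 3 without the filter on low values. Apart from fewer cells in single subclusters, the cause of these changes was not tested.

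*LApc* was the shallowest library, and of its adenoma-enriched cells 1267 were kept against 9161 in *LApcL*, so its levels have the wider intervals. *Ereg* was below 10 CPM in every class, so none of its differences was called. The intervals leave out the spread between mice, which was not measured.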
